A study of Mus musculus with 10 samples.

Results

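Mitosis genes encode the proteins that condense chromosomes, attach them to the spindle, separate them and cut the cell apart, and this account follows a list of 50 of them through sorted mouse CD4 T cells. The members are the genes Mki67, Top2a, Ccna2, Ccnb1, Ccnb2, Cdk1, Cdc25c, Plk1, Nek2, Cdkn3, Cdca3, Aurka, Aurkb, Birc5, Cdca8, Bub1, Bub1b, Ttk, Mad2l1, Cdc20, Ube2c, Pttg1, Cdca5, Nuf2, Ndc80, Spc25, Cenpa, Cenpe, Cenpf, Cenpi, Kif11, Kif22, Kif2c, Kif4, Tpx2, Spag5, Ckap2, Nusap1, Kif20a, Kif23, Prc1, Anln, Ect2, Racgap1, Depdc1b, Ncapg, Ncaph, Ncapd2, Smc2 and Smc4. They were listed by name, with earlier results of these data known. Each was read by its probe set of a single gene with the highest mean log2 value over 10 arrays. Of the 50 members 49 were measured, and all 49 were among the 11939 genes kept because at least 1 array reached its own median over all probe sets. Ccnb1 had no probe set annotated to it alone and is only named. The counts below are read against all 11939 genes, and such shares describe the list and do not test it.

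RNA came from CD4 T cells of the pooled lymph nodes and spleen of female mice aged 6 to 8 weeks, on Affymetrix mouse 430 2.0 arrays with 1 array in each of 10 groups. Foxp3 is the transcription factor that defines regulatory T cells. Homozygous Foxp3(gfp/gfp) mice, a knock-in backcrossed from 129/Sv to C57BL/6 for 8 to 10 generations, make Foxp3 fused to green fluorescent protein (GFP). They gave GFP-negative cells without the IL-2 receptor subunit CD25 (CD25neg), GFP-negative cells with CD25 (CD25pos) and GFP-positive cells (GFPfoxp3). Foxp3(gfpko/wt) females, backcrossed 5 generations, carry an allele that makes GFP in place of Foxp3, and because the gene is X-linked their GFP-positive cells (GFPko) read the locus without the protein while other cells of the same mice use the normal allele. The allele and the number of backcross generations change together between GFPko and the other groups and cannot be told apart. A further array each of CD25pos, GFPko and GFPfoxp3 came from IL-2-treated mice, which received 4 injections within 24 h of 50 ng per g, the last of them 30 min before the cells were collected. The labels of the untreated groups do not say whether those mice received vehicle.

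The other 3 groups began as CD25+CD4+ cells of C57BL/6 mice that were activated in culture with anti-CD3 and anti-CD28 at 100 ng/ml each and IL-2 at 100 U/ml. They were transduced with the GFP-marked retroviral vector MigR1, empty, carrying the cAMP-degrading phosphodiesterase PDE3B, or carrying its mutant PDE3B(H801A). At day 5 the cultures held over 70% Foxp3+ cells, of which over 55% were transduced. The cells were transferred with CD25- CD4+ cells of B6.SJL (Ly5.1+) mice that carried the same vector into TCRalpha-deficient recipients, which lack their own alpha beta T cells. After 3 weeks the sort took Ly5.1- CD4+ cells that were GITR+ and GFP+. The labels describe GITR as closely tracking Foxp3 in these cells.

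Entry into mitosis is driven by cyclin A2, cyclin B and the kinase Cdk1, and the transcripts of the machinery that follows accumulate in the G2 and M phases of the cell cycle. In resting cells these genes are held down by a repressor complex, DREAM, which binds the cell cycle genes homology region of their promoters, and nearby CCAAT boxes bind the activator NF-Y. Resting T cells hold few of these transcripts, and IL-2, which signals through STAT5, is a growth factor for T cells that carry CD25. In RNA of a whole sorted population, a larger share of cells in mitosis and more mitotic RNA per cell cannot be told apart.

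The promoters show what these genes share in sequence, which the list did not use. RefSeq windows on GRCm38.p6, from 250 bases before to 50 after each start, were at hand for 42 of the 49 measured members. The letters TTTGAA of the homology region, on either strand (TTCAAA on the other), occurred in 32 of the 42 members (76.2%), against 20.2% of the 27025 genes with a window and 14.9% of the 9689 such genes kept on the arrays. The CCAAT box, which reads ATTGG on the other strand, occurred in 32 members (76.2%), against 41.1% and 42.9%. Both were present in 28 members (66.7%), against 8.97% and 7.15%. Within 50 bases of the start, TTTGAA was found in 27 members (64.3%), against 5.72% and 3.93%. A match of letters is a description of the window and shows no binding. The 6 windows printed here belong to members described in full below that hold both motifs and are ordered by their difference between GFPfoxp3 and GFPko cells, with Ccnb2 first. They are written 5′ to 3′ on the gene's strand, and capitals mark TTTGAA and CCAAT on either strand.
Ccnb2 (chr9:70421505-70421804, minus strand): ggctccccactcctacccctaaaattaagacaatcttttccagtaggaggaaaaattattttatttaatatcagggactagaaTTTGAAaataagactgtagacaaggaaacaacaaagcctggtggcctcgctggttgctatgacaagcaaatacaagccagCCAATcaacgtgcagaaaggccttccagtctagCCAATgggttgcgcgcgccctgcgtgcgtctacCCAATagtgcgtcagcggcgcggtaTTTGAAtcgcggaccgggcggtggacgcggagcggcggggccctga
Aurka (chr2:172370521-172370820, minus strand): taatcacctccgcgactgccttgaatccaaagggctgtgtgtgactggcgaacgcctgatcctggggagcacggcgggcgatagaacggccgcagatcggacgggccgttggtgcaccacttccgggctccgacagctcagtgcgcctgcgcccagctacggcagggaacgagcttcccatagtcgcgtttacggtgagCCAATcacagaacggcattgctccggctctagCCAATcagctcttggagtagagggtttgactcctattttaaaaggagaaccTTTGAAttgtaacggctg
Ttk (chr9:83834439-83834738, plus strand): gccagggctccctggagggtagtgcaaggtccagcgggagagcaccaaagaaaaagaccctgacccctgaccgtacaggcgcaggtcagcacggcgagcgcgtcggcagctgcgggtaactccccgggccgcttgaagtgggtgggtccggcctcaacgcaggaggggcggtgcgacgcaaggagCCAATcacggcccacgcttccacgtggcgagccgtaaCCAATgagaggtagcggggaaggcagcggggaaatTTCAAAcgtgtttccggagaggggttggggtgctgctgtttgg
Spag5 (chr11:78301341-78301640, plus strand): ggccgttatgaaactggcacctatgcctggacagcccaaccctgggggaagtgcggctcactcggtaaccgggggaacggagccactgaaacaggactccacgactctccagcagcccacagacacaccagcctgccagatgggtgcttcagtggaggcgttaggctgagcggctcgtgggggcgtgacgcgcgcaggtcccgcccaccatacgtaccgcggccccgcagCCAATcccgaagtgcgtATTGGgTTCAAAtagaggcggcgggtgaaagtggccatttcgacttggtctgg
Cdc20 (chr4:118437294-118437593, minus strand): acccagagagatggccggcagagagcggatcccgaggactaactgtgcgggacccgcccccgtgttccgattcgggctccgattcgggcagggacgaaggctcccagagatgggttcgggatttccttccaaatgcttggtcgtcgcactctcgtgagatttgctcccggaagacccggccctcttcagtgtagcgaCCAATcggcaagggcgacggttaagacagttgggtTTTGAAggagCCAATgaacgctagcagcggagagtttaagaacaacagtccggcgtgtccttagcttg
Cdk1 (chr10:69352863-69353162, minus strand): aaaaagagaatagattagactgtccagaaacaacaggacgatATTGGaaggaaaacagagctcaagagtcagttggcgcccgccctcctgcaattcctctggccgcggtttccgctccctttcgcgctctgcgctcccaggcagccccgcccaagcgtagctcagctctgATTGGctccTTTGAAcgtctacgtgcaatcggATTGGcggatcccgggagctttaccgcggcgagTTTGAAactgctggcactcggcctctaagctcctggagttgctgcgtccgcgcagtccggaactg
In Ccnb2, which encodes a B-type cyclin, 3 CCAAT boxes began 87, 54 and 21 bases before the start and a TTTGAA 5 bases after it. Aurka, Ttk, Spag5 and Cdc20 each held a TTTGAA or its reverse within 50 bases of the start beside CCAAT boxes upstream. Cdk1 held all 3 of its CCAAT boxes on the opposite strand.

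The sorts and the RNA were checked first. The Foxp3 probe set read 2.45 in CD25neg cells, at most 3.90 in CD25pos cells, 8.33 and 9.39 in GFPko cells and at least 10.86 on the GFPfoxp3 and vector arrays (log2 level). All 9 T cell markers measured lay above the array median on all 10 arrays. Of 8 B cell markers measured, 4 or 5 were at or above the median on each array. Ighm read 9.81 to 12.57, and Cd74 read 8.56 to 9.03 and Cd79b 6.77 to 8.23 on the vector arrays, while Cd79a and Pax5 were below the median on every array. The summed linear level of the 8 was 996 to 4910 on the arrays of freshly sorted cells and 6080 to 6870 on the vector arrays. The drop in signal from the 3′ to the 5′ probe sets of Actb, a sign of RNA length, was 2.70 to 3.80 log2 units on the 7 arrays of freshly sorted cells and 5.87 to 6.38 on the vector arrays, with the longest drop for PDE3B. It was smaller on each IL-2 array than on its untreated partner (2.86 against 3.80 in CD25pos, 2.76 against 3.69 in GFPko and 2.70 against 3.07 in GFPfoxp3). For Gapdh the same pairs read 5.24 against 6.43, 5.265 against 5.94 and 5.53 against 5.55. The Gapdh drop in CD25neg, 6.49, was the longest of the freshly sorted arrays, and on the vector arrays it was 7.475 to 7.995. The part of these drops in the results below was not tested.

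Ordered by the median level of the 49 genes, the arrays ran from CD25neg to IL-2-treated GFPfoxp3 cells. The median log2 level was 3.52 in CD25neg, 4.37 in GFPko, 5.75 in CD25pos and 6.12 in GFPfoxp3 cells without IL-2. After IL-2 it was 6.28 in GFPko, 7.31 in CD25pos and 7.63 in GFPfoxp3 cells. On the vector arrays it was 6.10 with PDE3B, 6.63 with H801A and 6.97 with empty vector. Thus 40 of the 49 members were lowest of all 10 arrays in CD25neg (81.6%, against 11.3% of all genes kept), and 36 were highest in IL-2-treated GFPfoxp3 cells (73.5%, against 11.4%). In CD25neg 17 members lay below the array's own median over all probe sets, the level taken here as background, and in GFPko 8 did, whereas on the IL-2-treated CD25pos and GFPfoxp3 arrays 0 did. On all 10 arrays 32 members stood at or above that median. The heat map of relative levels and the plot of level distributions show this order.

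**Figure D1:**
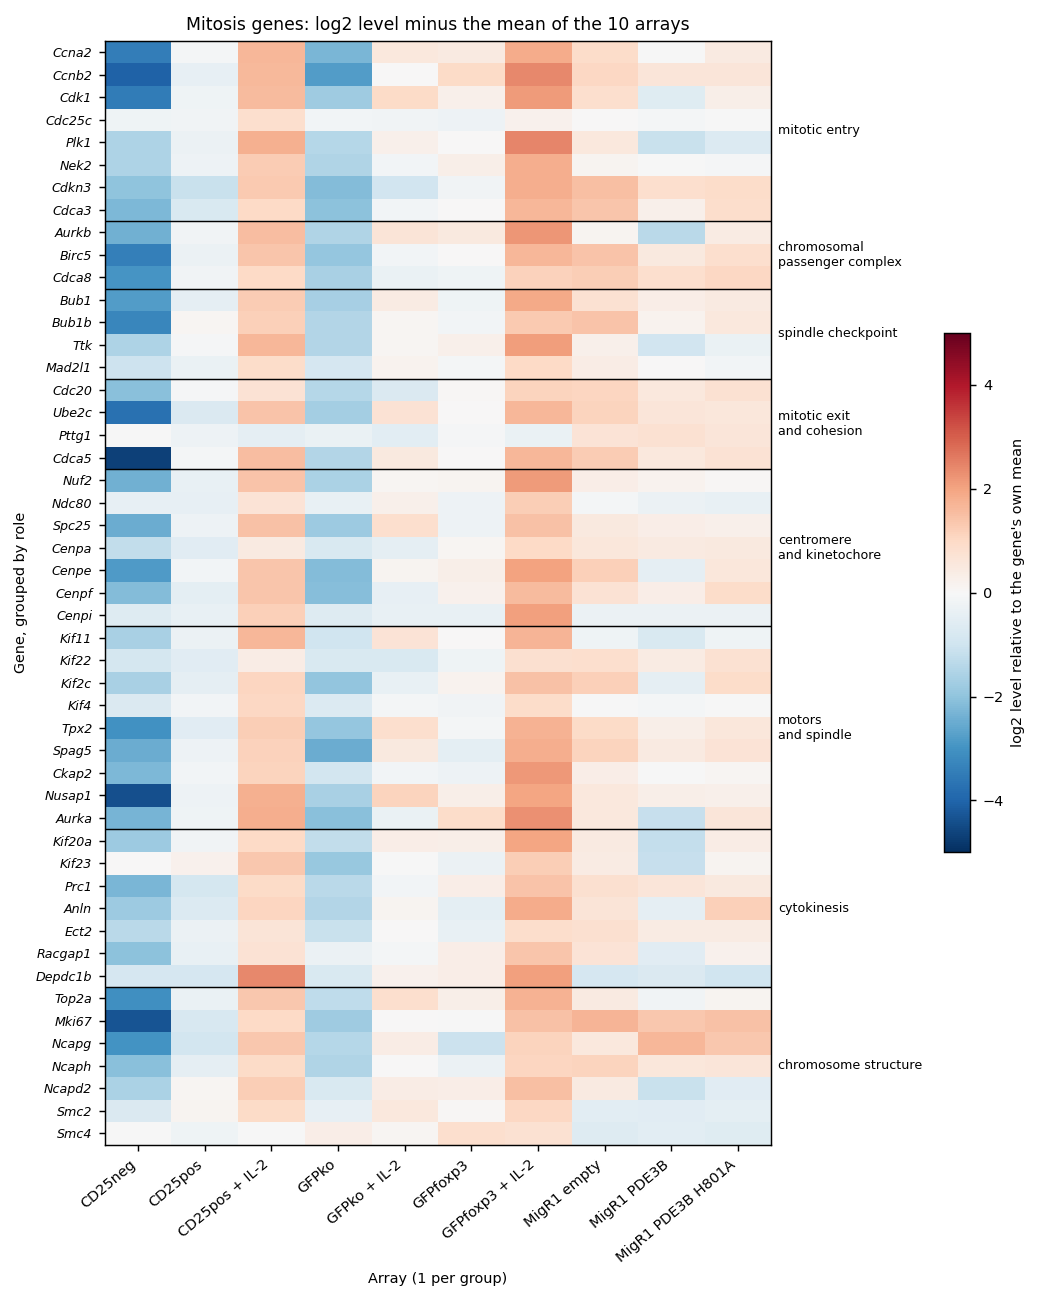
Log2 level of each of the 49 measured mitosis genes on each array, minus that gene's mean over the 10 arrays, with genes in rows grouped by role and 1 array per column (blue lower, red higher). The CD25neg and GFPko columns are blue and the columns of IL-2-treated CD25pos and GFPfoxp3 cells are red for most rows, and the rows of Pttg1, Smc4 and Cdc25c vary little.

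**Figure D2:**
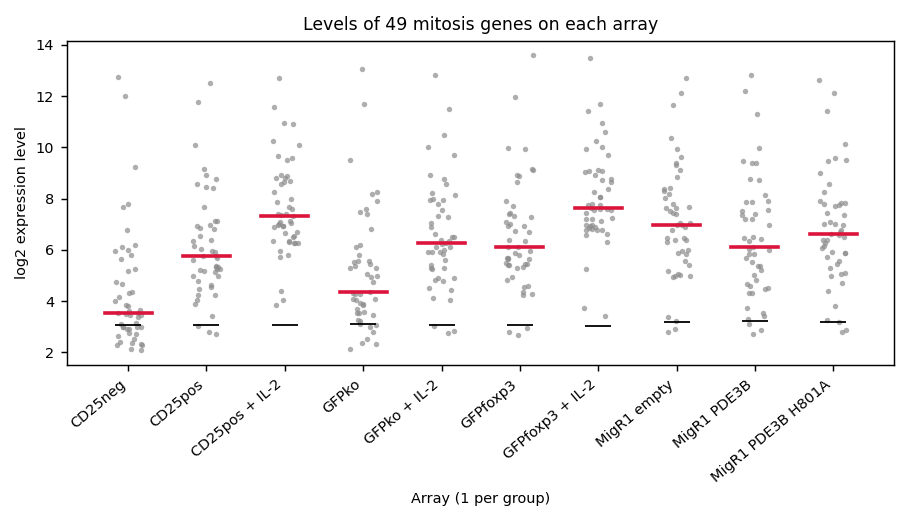
Log2 expression level (vertical axis) of the 49 genes on each array (horizontal axis). Grey points are genes, red lines are their medians, from 3.52 in CD25neg to 7.63 in IL-2-treated GFPfoxp3 cells, and short black lines are the array medians over all probe sets, 3.04 to 3.22.

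The presence of Foxp3 protein was addressed by comparing GFPfoxp3 with GFPko cells, which both read the Foxp3 locus. With the additive model of population and IL-2 over 6 arrays, 31 of the 49 mitosis genes were higher in GFPfoxp3 cells (limma, adjusted p under 0.05), where 5.44% of all genes kept were called higher, and 0 were called lower, where 2.03% were. At an unadjusted p under 0.05, 44 were higher and 0 lower. This and the later unadjusted counts mostly stand without the share of all genes, so they show direction and not an excess over all genes. All 49 differences were positive, from 0.13 to 3.05 log2 units, with a median of 1.42, against a median of 0.01 over all genes. The groups hold 1 array each, so the error in this model is the departure from an equal IL-2 effect in the 3 populations, on 2 residual degrees of freedom, and not the spread between mice. Without IL-2 the median difference was 1.50, with 34 members at least 2-fold higher (5.66% of all genes) and 0 lower (2.26%). After IL-2 it was 1.42, with 37 at least 2-fold higher (5.79%) and 0 lower (2.15%). Without the filter on dim genes, which adds genes to the adjustment, 14 members were called. Of the 5 B cell markers kept, Cd74, Cd79b and Ighm were also called higher, and the summed linear level of the 8 measured was 1390 and 996 on the GFPko arrays and 4910 and 4530 on the GFPfoxp3 arrays, with Cd79a and Pax5 below background on all 4. Their part in the result was not tested.

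Most mitosis genes were higher after IL-2 in all 3 populations. Of the 49, 35 were at least 2-fold higher in GFPko cells (2.91% of all genes), 43 in CD25pos cells (0.997%) and 44 in GFPfoxp3 cells (1.73%), with median differences of 1.58, 1.63 and 1.53 log2 units. In each population 0 were that far lower (2.00%, 0.352% and 0.218% of all genes). In each of the 3 populations 34 members were at least 2-fold higher (69.4%, against 0.653%). Over the 4 measured gamma delta T cell markers the summed linear level was higher after IL-2 as well, at 1560 against 1140 in CD25pos, 897 against 406 in GFPko and 152 against 113 in GFPfoxp3 cells. Its part in the result was not tested. For 26 members all 3 IL-2 arrays lay above all 3 untreated arrays (53.1%, against 4.20%), and for the rest at least 1 untreated array overlapped them.

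In the additive model 15 members were called higher with IL-2, with differences of 1.15 to 2.08 log2 units, and 0 lower (46 and 1 at an unadjusted p under 0.05). Over all genes 28 were called higher (0.235%) and 0 lower (0.00%, 480 at an unadjusted p under 0.05). Beside the 15 members, 10 of the 28 were in the other cell cycle lists, and the remaining 3, named after their values were seen, were Rgs1, Brca1 and Cish. The adjusted p-values of the 15 lay between 0.0394 and 0.0438, close to the threshold. Under quantile normalization, with no filter, with an intensity trend and robust variance, or without any 1 of the 3 populations the number called was 0, with 43 to 48 members at an unadjusted p under 0.05, while centring each array on its median gave 38.

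**Figure D3:**
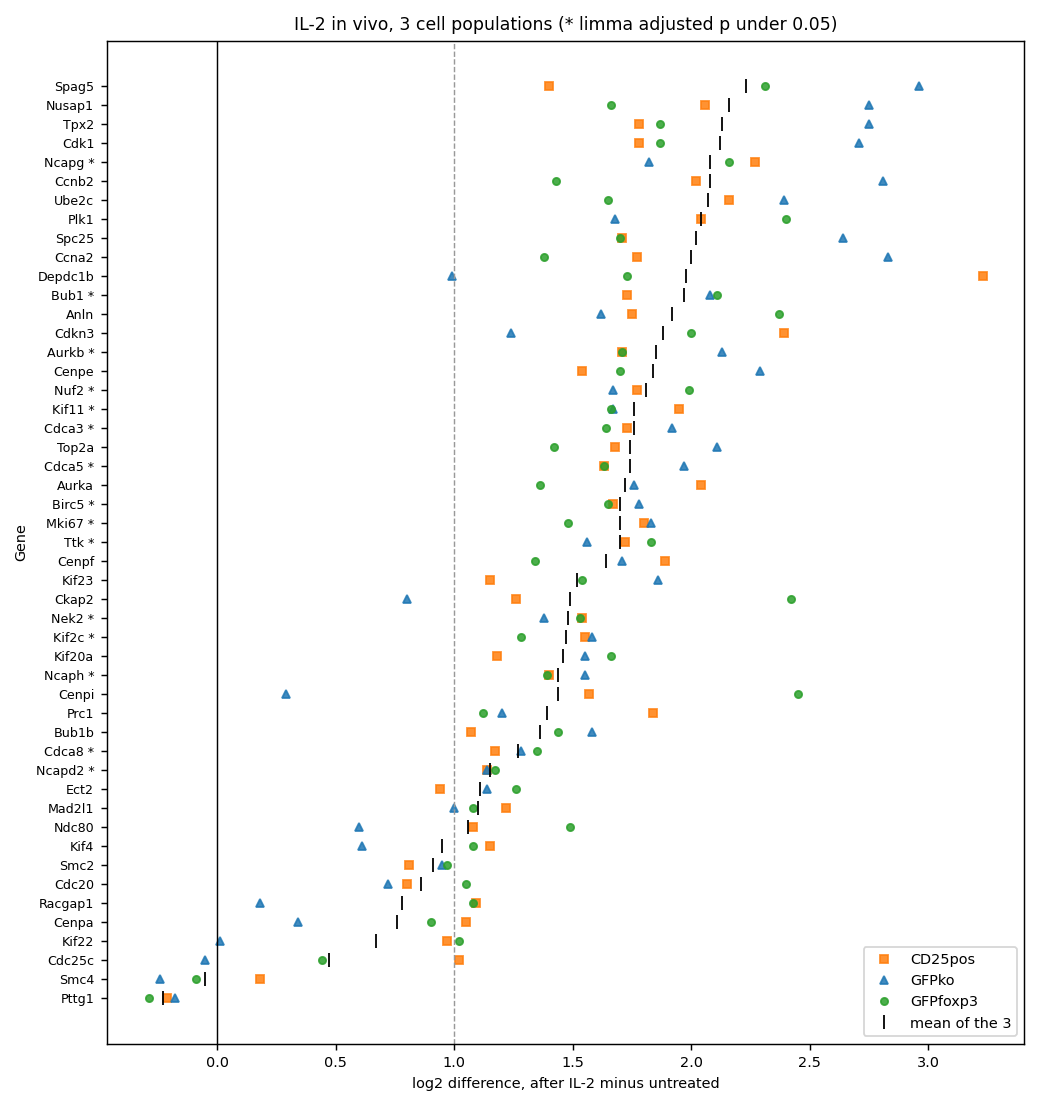
Difference in log2 level between IL-2-treated and untreated mice (horizontal axis) for each of the 49 genes (vertical axis) in CD25pos, GFPko and GFPfoxp3 cells, with a tick at their mean, a dashed line at 2-fold and an asterisk for the 15 genes called by limma. In 34 genes all 3 symbols lie beyond the dashed line, and Smc4 and Pttg1 lie at the bottom near or below 0.

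Untreated GFPfoxp3 cells and IL-2-treated GFPko cells stood close together. The median difference, IL-2-treated GFPko minus untreated GFPfoxp3, was 0.07 log2 units. Of the members 2, Ncapg and Spc25, were at least 2-fold higher and 1, Aurka, lower, where 2.76% and 5.03% of all genes were. The second Ncapg probe set was not higher, at 5.96 in IL-2-treated GFPko and 6.21 in untreated GFPfoxp3 cells. This pair of groups differs in both allele and treatment and holds 1 array a side, with no test.

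Among the mitotic entry genes, 6 of 8 measured were called higher in GFPfoxp3 than in GFPko cells and 2 of 8 with IL-2. Ccnb2 had a log2 level of 2.33 in CD25neg, and without and with IL-2 of 5.96 and 7.98 in CD25pos, 3.59 and 6.40 in GFPko, and 7.33 and 8.76 in GFPfoxp3 cells, beside 7.40, 6.98 and 6.995 on the empty, PDE3B and H801A vector arrays. CD25neg was lowest and IL-2-treated GFPfoxp3 highest, and the GFPfoxp3 array lay above the GFPko array in both states. In the fit Ccnb2 differed by 3.05 ± 0.349 (SE, adjusted p = 0.0233) between GFPfoxp3 and GFPko cells and 2.08 ± 0.285 (SE, adjusted p = 0.156) with IL-2, the first called. For Ccna2 the untreated CD25neg, CD25pos, GFPko and GFPfoxp3 arrays read 3.80, 7.14, 4.95 and 7.71, the IL-2 arrays of the last 3 read 8.91, 7.78 and 9.09, and the empty, PDE3B and H801A vector arrays read 8.18, 7.22 and 7.70. Ccna2, cyclin A2, acts from S phase into mitosis, and its IL-2 difference was 2.83 in GFPko and 1.38 in GFPfoxp3 cells. The fit gave Ccna2 a log2 difference of 2.04 ± 0.377 (SE, adjusted p = 0.0568) between GFPfoxp3 and GFPko cells and 2.00 ± 0.308 (SE, adjusted p = 0.193) with IL-2, neither called. Cdk1 read 2.63 in CD25neg cells, 5.91 in CD25pos cells and 7.69 after IL-2, 4.34 and 7.05 in GFPko, 6.38 and 8.24 in GFPfoxp3, and 6.96, 5.52 and 6.40 with empty vector, PDE3B and H801A. Cdk1 is the kinase these cyclins activate. Differences in Cdk1 were 1.62 ± 0.268 (SE, adjusted p = 0.0464) between GFPfoxp3 and GFPko cells and 2.12 ± 0.219 (SE, adjusted p = 0.102) with IL-2, the first called. Plk1, Nek2, Cdkn3 and Cdca3, kinases and regulators of mitotic entry, were called between the 2 populations with differences of 1.82, 1.88, 2.39 and 1.92. Nek2 and Cdca3 were also called with IL-2 (1.48 and 1.76). Cdc25c, a phosphatase that activates Cdk1, stood below background on 7 arrays, both GFPko arrays among them, and was not called.

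The chromosomal passenger complex, which corrects attachments of chromosomes to the spindle, had all 3 measured members called in both comparisons. Birc5 had a log2 level of 4.02 in CD25neg, and without and with IL-2 of 7.14 and 8.82 in CD25pos, 5.51 and 7.29 in GFPko, and 7.45 and 9.10 in GFPfoxp3 cells, beside 8.84, 7.90 and 8.25 on the empty, PDE3B and H801A vector arrays. Birc5, survivin, is the subunit that brings the complex to the centromere. Birc5 differed by 1.87 ± 0.0988 (SE, adjusted p = 0.00742) between GFPfoxp3 and GFPko cells and 1.70 ± 0.0807 (SE, adjusted p = 0.0394) with IL-2, both called. For Aurkb the untreated CD25neg, CD25pos, GFPko and GFPfoxp3 arrays read 3.46, 5.68, 4.37 and 6.36, the IL-2 arrays of the last 3 read 7.39, 6.50 and 8.07, and the empty, PDE3B and H801A vector arrays read 6.01, 4.51 and 6.27. Aurkb is its kinase, and in GFPko cells IL-2 took it from 4.37 to 6.50, near the 6.36 of untreated GFPfoxp3 cells. In the fit Aurkb differed by 1.77 ± 0.15 (SE, adjusted p = 0.0129) between GFPfoxp3 and GFPko cells and 1.85 ± 0.123 (SE, adjusted p = 0.0412) with IL-2, both called. Cdca8 read 6.18 in CD25neg cells, 8.93 in CD25pos cells and 10.10 after IL-2, 7.50 and 8.78 in GFPko, 8.91 and 10.26 in GFPfoxp3, and 10.36, 9.96 and 10.14 with empty vector, PDE3B and H801A. Cdca8, borealin, is another subunit, and its level was lowest in CD25neg and GFPko cells. The fit gave Cdca8 a log2 difference of 1.45 ± 0.103 (SE, adjusted p = 0.00997) between GFPfoxp3 and GFPko cells and 1.27 ± 0.0843 (SE, adjusted p = 0.0412) with IL-2, both called.

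All 4 spindle checkpoint genes, which delay chromosome separation until every chromosome is attached, were called higher in GFPfoxp3 than in GFPko cells, and Bub1 and Ttk were called with IL-2. Ttk had a log2 level of 3.15 in CD25neg, and without and with IL-2 of 4.64 and 6.35 in CD25pos, 3.24 and 4.81 in GFPko, and 4.96 and 6.79 in GFPfoxp3 cells, beside 4.96, 3.75 and 4.38 on the empty, PDE3B and H801A vector arrays. The kinase Ttk was near background in CD25neg and untreated GFPko cells. Differences in Ttk were 1.85 ± 0.113 (SE, adjusted p = 0.00826) between GFPfoxp3 and GFPko cells and 1.70 ± 0.0926 (SE, adjusted p = 0.0394) with IL-2, both called. For Bub1 the untreated CD25neg, CD25pos, GFPko and GFPfoxp3 arrays read 2.90, 5.23, 4.04 and 5.48, the IL-2 arrays of the last 3 read 6.96, 6.11 and 7.59, and the empty, PDE3B and H801A vector arrays read 6.46, 6.04 and 6.13. Bub1 recruits checkpoint proteins to kinetochores. Bub1 differed by 1.46 ± 0.139 (SE, adjusted p = 0.0166) between GFPfoxp3 and GFPko cells and 1.97 ± 0.113 (SE, adjusted p = 0.0394) with IL-2, both called. Mad2l1 read 7.69 in CD25neg cells, 8.42 in CD25pos cells and 9.65 after IL-2, 7.91 and 8.91 in GFPko, 8.64 and 9.72 in GFPfoxp3, and 9.12, 8.75 and 8.59 with empty vector, PDE3B and H801A. Mad2l1, which inhibits Cdc20, lay well above background on every array and had a narrow range. In the fit Mad2l1 differed by 0.77 ± 0.109 (SE, adjusted p = 0.0344) between GFPfoxp3 and GFPko cells and 1.10 ± 0.089 (SE, adjusted p = 0.0635) with IL-2, the first called. Bub1b, its partner in that inhibition, differed by 1.28 between the populations and by 1.36 with IL-2, the latter not called.

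Of the 4 genes of mitotic exit and cohesion, 3 were called between GFPfoxp3 and GFPko cells and 1, Cdca5, with IL-2. Cdc20 had a log2 level of 6.76 in CD25neg, and without and with IL-2 of 8.77 and 9.57 in CD25pos, 7.41 and 8.13 in GFPko, and 8.88 and 9.93 in GFPfoxp3 cells, beside 9.92, 9.37 and 9.60 on the empty, PDE3B and H801A vector arrays. Cdc20 activates the anaphase-promoting complex, which starts the separation of sister chromatids. The fit gave Cdc20 a log2 difference of 1.63 ± 0.127 (SE, adjusted p = 0.0118) between GFPfoxp3 and GFPko cells and 0.86 ± 0.103 (SE, adjusted p = 0.138) with IL-2, the first called. For Ube2c the untreated CD25neg, CD25pos, GFPko and GFPfoxp3 arrays read 3.52, 6.52, 5.57 and 7.28, the IL-2 arrays of the last 3 read 8.69, 7.96 and 8.92, and the empty, PDE3B and H801A vector arrays read 8.36, 7.86 and 7.82. Ube2c is the ubiquitin-conjugating enzyme of that complex. Differences in Ube2c were 1.34 ± 0.209 (SE, adjusted p = 0.0412) between GFPfoxp3 and GFPko cells and 2.07 ± 0.171 (SE, adjusted p = 0.0638) with IL-2, the first called. Pttg1 read 12.00 in CD25neg cells, 11.78 in CD25pos cells and 11.57 after IL-2, 11.68 and 11.50 in GFPko, 11.97 and 11.68 in GFPfoxp3, and 12.71, 12.81 and 12.64 with empty vector, PDE3B and H801A. Pttg1, securin, holds back the protease that cuts cohesin. By the probe set used, which is marked as able to cross-match, Pttg1 was the only member lower after IL-2 in all 3 populations. The further Pttg1 probe sets gave mean IL-2 differences of -0.26 and 0.25, and the latter was higher in each population. Pttg1 differed by 0.23 ± 0.0975 (SE, adjusted p = 0.239) between GFPfoxp3 and GFPko cells and -0.23 ± 0.0796 (SE, adjusted p = 0.47) with IL-2, neither called. Cdca5, sororin, which protects cohesion, was 1.33 higher in GFPfoxp3 than in GFPko cells and 1.74 higher with IL-2.

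Among centromere and kinetochore genes, 3 of 7 were called between GFPfoxp3 and GFPko cells (Nuf2, Cenpe and Cenpf) and 1 of 7 with IL-2 (Nuf2, 1.81). Cenpe had a log2 level of 2.30 in CD25neg, and without and with IL-2 of 5.00 and 6.54 in CD25pos, 2.99 and 5.28 in GFPko, and 5.44 and 7.15 in GFPfoxp3 cells, beside 6.32, 4.68 and 5.71 on the empty, PDE3B and H801A vector arrays. Cenpe is a kinetochore motor that moves chromosomes to the middle of the spindle, and it was below background in CD25neg and untreated GFPko cells. In the fit Cenpe differed by 2.16 ± 0.214 (SE, adjusted p = 0.0181) between GFPfoxp3 and GFPko cells and 1.84 ± 0.175 (SE, adjusted p = 0.0816) with IL-2, the first called. For Cenpa the untreated CD25neg, CD25pos, GFPko and GFPfoxp3 arrays read 7.79, 8.44, 8.25 and 9.11, the IL-2 arrays of the last 3 read 9.49, 8.58 and 10.01, and the empty, PDE3B and H801A vector arrays read 9.61, 9.47 and 9.52. Cenpa, the histone variant that marks centromeres, lay well above background on all arrays. The fit gave Cenpa a log2 difference of 1.14 ± 0.205 (SE, adjusted p = 0.0541) between GFPfoxp3 and GFPko cells and 0.76 ± 0.167 (SE, adjusted p = 0.314) with IL-2, neither called. Spc25 read 4.69 in CD25neg cells, 6.93 in CD25pos cells and 8.64 after IL-2, 5.36 and 8.00 in GFPko, 6.94 and 8.64 in GFPfoxp3, and 7.67, 7.51 and 7.43 with empty vector, PDE3B and H801A. Spc25 and Ndc80 are parts of the complex that binds microtubules. Differences in Spc25 were 1.11 ± 0.279 (SE, adjusted p = 0.0994) between GFPfoxp3 and GFPko cells and 2.02 ± 0.227 (SE, adjusted p = 0.123) with IL-2, neither called. Cenpi, another centromere protein, was above background only on the IL-2-treated CD25pos and GFPfoxp3 arrays, at 4.39 and 5.24 (limma, adjusted p = 0.224 between GFPfoxp3 and GFPko cells). Nuf2 and Cenpf differed by 1.87 and 2.16 between the populations.

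Of the 9 motor and spindle genes 3 were called between GFPfoxp3 and GFPko cells and 2 with IL-2 (Kif11 and Kif2c). Aurka had a log2 level of 2.14 in CD25neg, and without and with IL-2 of 4.24 and 6.28 in CD25pos, 2.37 and 4.13 in GFPko, and 5.40 and 6.76 in GFPfoxp3 cells, beside 4.98, 3.31 and 5.08 on the empty, PDE3B and H801A vector arrays. Aurka is the kinase of the spindle poles, and it stood below background in untreated CD25neg and GFPko cells. Aurka differed by 2.83 ± 0.191 (SE, adjusted p = 0.00928) between GFPfoxp3 and GFPko cells and 1.72 ± 0.156 (SE, adjusted p = 0.0747) with IL-2, the first called. For Spag5 the untreated CD25neg, CD25pos, GFPko and GFPfoxp3 arrays read 2.30, 4.54, 2.31 and 4.28, the IL-2 arrays of the last 3 read 5.94, 5.28 and 6.59, and the empty, PDE3B and H801A vector arrays read 5.90, 5.23 and 5.47. Spag5 is a spindle protein, and it was below background in CD25neg and untreated GFPko cells, which puts the IL-2 array of GFPko at least 4.49-fold above the untreated one. In the fit Spag5 differed by 1.64 ± 0.393 (SE, adjusted p = 0.0911) between GFPfoxp3 and GFPko cells and 2.23 ± 0.321 (SE, adjusted p = 0.171) with IL-2, neither called. Nusap1 read 2.71 in CD25neg cells, 6.82 in CD25pos cells and 8.88 after IL-2, 5.46 and 8.21 in GFPko, 7.39 and 9.06 in GFPfoxp3, and 7.62, 7.39 and 7.35 with empty vector, PDE3B and H801A. Nusap1 bundles microtubules near chromosomes. The fit gave Nusap1 a log2 difference of 1.39 ± 0.284 (SE, adjusted p = 0.068) between GFPfoxp3 and GFPko cells and 2.16 ± 0.232 (SE, adjusted p = 0.111) with IL-2, neither called. Kif11, the motor that pushes spindle poles apart, was called in both comparisons (1.02 and 1.76). Kif2c, which shortens microtubules, differed by 1.97 and 1.47 in a probe set marked as able to cross-match, and its remaining probe sets lay near background. Without such probe sets its difference between GFPfoxp3 and GFPko cells was -0.13 (limma, adjusted p = 0.606).

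Cytokinesis genes were called in 5 of 7 cases between GFPfoxp3 and GFPko cells and in 0 of 7 with IL-2, where all 7 had an unadjusted p under 0.05. Prc1 had a log2 level of 4.32 in CD25neg, and without and with IL-2 of 5.75 and 7.59 in CD25pos, 5.28 and 6.49 in GFPko, and 6.94 and 8.06 in GFPfoxp3 cells, beside 7.43, 7.22 and 7.09 on the empty, PDE3B and H801A vector arrays. Prc1 bundles the microtubules of the central spindle. Differences in Prc1 were 1.61 ± 0.212 (SE, adjusted p = 0.0296) between GFPfoxp3 and GFPko cells and 1.39 ± 0.173 (SE, adjusted p = 0.151) with IL-2, the first called. For Depdc1b the untreated CD25neg, CD25pos, GFPko and GFPfoxp3 arrays read 3.39, 3.42, 3.47 and 4.59, the IL-2 arrays of the last 3 read 6.64, 4.45 and 6.31, and the empty, PDE3B and H801A vector arrays read 3.39, 3.52 and 3.26. Depdc1b, linked to cell division, was near background except on the GFPfoxp3 and IL-2-treated arrays, and its IL-2 differences were spread from 0.99 in GFPko to 3.23 in CD25pos cells. Depdc1b differed by 1.49 ± 0.563 (SE, adjusted p = 0.202) between GFPfoxp3 and GFPko cells and 1.98 ± 0.46 (SE, adjusted p = 0.337) with IL-2, neither called. Kif20a, Kif23, Anln and Ect2, which place the furrow where the cell divides, were called with differences of 1.58, 1.42, 1.35 and 0.78 between the populations.

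Chromosome structure genes were called in 4 of 7 cases in both comparisons. Mki67 read 5.64 in CD25neg cells, 9.16 in CD25pos cells and 10.95 after IL-2, 8.18 and 10.01 in GFPko, 9.95 and 11.43 in GFPfoxp3, and 11.67, 11.32 and 11.43 with empty vector, PDE3B and H801A. Mki67 encodes Ki-67, which coats mitotic chromosomes and is the usual marker of cycling cells. In the fit Mki67 differed by 1.59 ± 0.132 (SE, adjusted p = 0.0125) between GFPfoxp3 and GFPko cells and 1.70 ± 0.108 (SE, adjusted p = 0.0394) with IL-2, both called. Ncapg had a log2 level of 3.52 in CD25neg, and without and with IL-2 of 5.59 and 7.86 in CD25pos, 5.06 and 6.88 in GFPko, and 5.44 and 7.60 in GFPfoxp3 cells, beside 7.03, 8.14 and 7.85 on the empty, PDE3B and H801A vector arrays. Ncapg is a subunit of condensin, the complex that compacts chromosomes. The fit gave Ncapg a log2 difference of 0.55 ± 0.148 (SE, adjusted p = 0.111) between GFPfoxp3 and GFPko cells and 2.08 ± 0.121 (SE, adjusted p = 0.0394) with IL-2, the second called. For Smc4 the untreated CD25neg, CD25pos, GFPko and GFPfoxp3 arrays read 12.73, 12.52, 13.07 and 13.59, the IL-2 arrays of the last 3 read 12.70, 12.83 and 13.49, and the empty, PDE3B and H801A vector arrays read 12.11, 12.19 and 12.11. Smc4, a core condensin subunit, lay far above background on every array, with its highest levels on the 2 GFPfoxp3 arrays. Differences in Smc4 were 0.59 ± 0.139 (SE, adjusted p = 0.0889) between GFPfoxp3 and GFPko cells and -0.05 ± 0.113 (SE, adjusted p = 0.905) with IL-2, neither called. Probe sets of condensin genes disagreed. The second Ncapg probe set gave a difference of 1.98 between GFPfoxp3 and GFPko cells in place of 0.55. The 2 further Smc4 probe sets gave -0.47 and -0.77 in place of 0.59, and the further Smc2 probe sets gave -0.26 to -1.06 in place of 0.48. Of 33 members with several probe sets, all of a gene's probe sets had the same sign for 17 in this comparison and for 17 with IL-2. With probe sets below background on all 10 arrays left out, 29 members had several, and the counts were 23 and 22. Among genes called above, a further Cenpe probe set gave -0.26 between GFPfoxp3 and GFPko cells in place of 2.16. A further Ttk probe set gave 0.01 in place of 1.85, and a further Bub1 probe set gave -0.03 with IL-2 in place of 1.97. These further probe sets of Cenpe, Ttk and Bub1 read at most 4.25 on any array.

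**Figure D4:**
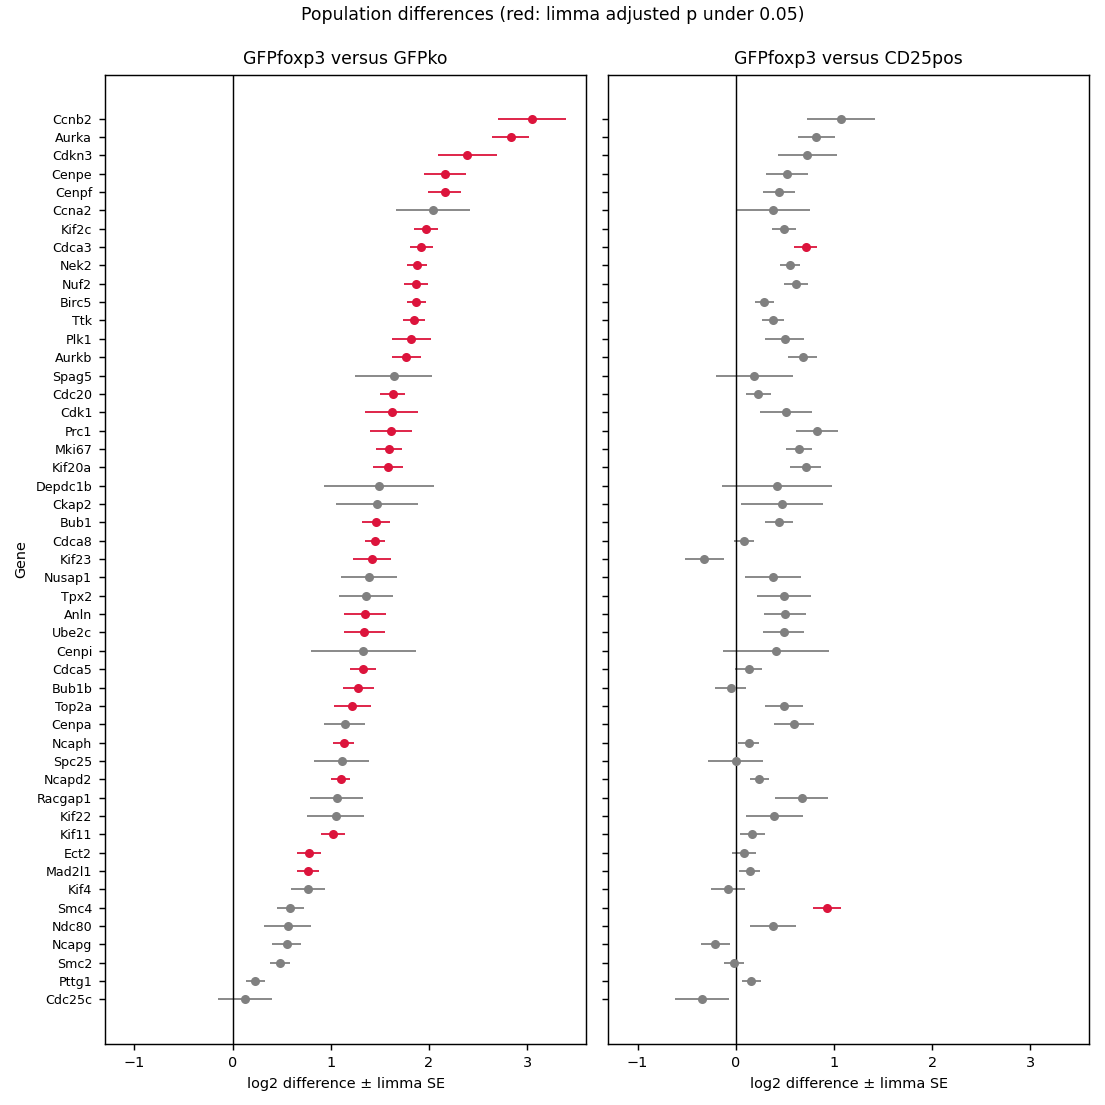
Difference in log2 level, with limma's standard error as bars (horizontal axis), for each of the 49 genes (vertical axis) between GFPfoxp3 and GFPko cells (left) and between GFPfoxp3 and CD25pos cells (right), with called genes in red. On the left all 49 points are positive and 31 are red, and on the right the points cluster around their median of 0.42 and 2 are red.

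CD25pos cells, which are GFP-negative, stood near GFPfoxp3 cells. Cdca3 and Smc4 were called higher in GFPfoxp3 cells (2 of 49, where 5.28% of all genes were), by 0.71 ± 0.116 (SE, adjusted p = 0.0396) and 0.93 ± 0.139 (SE, adjusted p = 0.0341), and 0 were lower (3.45% of all genes). The further probe sets of Smc4 gave 0.42 and -0.11 in place of 0.93, and with the mean of its probe sets Smc4 was not called. At an unadjusted p under 0.05, 15 were higher and 0 lower. The median was 0.42, with 43 of 49 differences positive, against a median of -0.03 over all genes, and all members lay between -0.34 (Cdc25c) and 1.07 (Ccnb2, SE 0.349, adjusted p = 0.158). Markers of other lymphocytes set the CD25pos arrays apart from the GFPko and GFPfoxp3 arrays. The summed linear level of the 4 measured gamma delta T cell markers was 1140 and 1560 on the CD25pos arrays. It was 406 and 897 on the GFPko arrays and 113 and 152 on the GFPfoxp3 arrays. Of the 5 CD8 and NK cell markers kept, Eomes, Klrd1 and Klrk1 were called higher in CD25pos than in GFPfoxp3 and in GFPko cells, and the summed linear level of the 6 measured was 1230 and 1120 on the CD25pos arrays, 70.9 and 102 on the GFPko arrays and 61.1 and 72.9 on the GFPfoxp3 arrays. Cd8a stayed near background and Ncr1 below it on these arrays. On the CD25neg array, also of GFP-negative cells, the sum of the CD8 and NK cell markers was 593. The part of such cells in the result was not tested. On untreated arrays 5 members were at least 2-fold higher (4.34% of all genes) and 0 lower (3.58%), and on IL-2 arrays 1 was higher (4.72%) and 0 lower (2.43%). Without the filter on dim genes 0 were called (15 at an unadjusted p under 0.05), and with centred arrays 6.

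GFPko cells lay below CD25pos cells. Here 19 members were called lower (2.24% of all genes were) and 0 higher (1.25%), with 39 lower and 0 higher at an unadjusted p under 0.05. The median was -1.01, and Smc4 alone had a positive difference (0.34, adjusted p = 0.289). Birc5, which was above background on all 10 arrays, differed by -1.58 ± 0.0988 (SE, adjusted p = 0.0166). GFPko was the lowest of the 3 populations both with and without IL-2 for 44 members (89.8%, against 18.6% of all genes). This comparison shares arrays with the others, and without the GFPfoxp3 arrays in the fit, which leaves 1 residual degree of freedom, 0 members were called (40 at an unadjusted p under 0.05, median -1.01). With no filter 2 were called. On untreated arrays 27 members were at least 2-fold lower in GFPko (4.70% of all genes) and 0 higher (2.02%), and on IL-2 arrays 25 were lower (3.42%) and 0 higher (2.35%).

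CD25neg cells held the lowest levels. These pairs of single arrays have no test. GFPfoxp3 exceeded CD25neg by at least 2-fold in 38 members (7.31% of all genes) and was lower in 0 (3.63%), with a median of 2.01 log2 units. CD25pos exceeded it in 36 (5.55%) with a median of 1.67 and was that far lower in 0 (1.69%). GFPko exceeded it in 16 (3.93%) with a median of 0.61. Against the other members, Kif23 was lower in GFPko by 1.91 log2 units (2.80% of all genes were at least 2-fold lower), from 5.98 in CD25neg to 4.07. The further Kif23 probe sets, near or below background, were not lower. They read 3.53 and 2.61 in CD25neg and 3.55 and 2.65 in GFPko cells. Ccnb2, Nusap1 and Cdca5 were below background in CD25neg, which puts GFPfoxp3 at least 19.3-fold, 20.2-fold and 16.3-fold higher.

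The vector arrays addressed PDE3B, whose transcript is low in GFPfoxp3 cells. The Pde3b probe set read 6.06 in untreated GFPfoxp3, 10.22 in GFPko and 11.62 in CD25pos cells, and 7.43, 6.91 and 7.54 on the arrays of empty vector, PDE3B and H801A, so that it was not higher with the PDE3B vector. Whether it reads the vector's transcript was not tested. With PDE3B 14 of 49 mitosis genes were at least 2-fold lower than with empty vector, where 4.25% of all genes were, and 1, Ncapg, was higher (1.20% of all genes). The median was -0.50, against -0.05 over all genes, and 37 members were lowest with PDE3B of the 3 vectors (75.5%, against 43.7% of all genes). There is 1 array a side and no test.

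The 14 lower genes lay in 7 of the 8 roles. They were Aurka, Kif20a, Cenpe, Plk1, Kif2c, Ncapd2, Kif23, Aurkb, Cdk1, Bub1b, Racgap1, Ttk, Cdca3 and Anln, at -1.67 to -1.08 log2 units. Aurka read 4.98 with empty vector, 3.31 with PDE3B and 5.08 with H801A. Aurkb, the other aurora kinase, read 6.01, 4.51 and 6.27. The second Aurkb probe set read 4.58, 4.77 and 4.83, so it was not lower with PDE3B than with empty vector. Both Aurkb probe sets are marked as able to cross-match. Mki67, in contrast, read 11.67, 11.32 and 11.43, and Ccnb2 7.40, 6.98 and 6.995, which are differences under 2-fold. H801A was at least 2-fold below empty vector in 2 members, Plk1 (-1.25) and Ncapd2 (-1.03), where 1.37% of all genes were, and higher in 0 (0.930%), with a median of -0.28.

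PDE3B was at least 2-fold below H801A in 7 members (2.30% of all genes) and higher in 0 (0.737%), with a median of -0.17. These were Aurka (-1.77), Aurkb (-1.76), Anln (-1.61), Kif20a (-1.55), Kif2c (-1.36), Kif23 (-1.28) and Cenpe (-1.03). The second Aurkb probe set read 4.77 with PDE3B and 4.83 with H801A. The PDE3B array had the longest Actb drop (6.38, against 5.87 and 5.95), and its median over the kept genes was lowest of the 10 arrays, at -0.34 log2 units from their mean. On it the T cell gene Cd4 read 8.05, against 9.29 and 8.65, and Lat 8.87, against 10.41 and 10.21. Over all 9 T cell markers the PDE3B array was not lowest. Their summed linear level was 25600 with PDE3B, against 28300 with empty vector and 24100 with H801A. The part of these shifts in the result was not tested. With the mean of all probe sets of each gene, 5 members were at least 2-fold lower than with empty vector and 0 higher, and 3 were lower than with H801A. The second Ncapg probe set read 7.16 with empty vector and 7.20 with PDE3B.

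**Figure D5:**
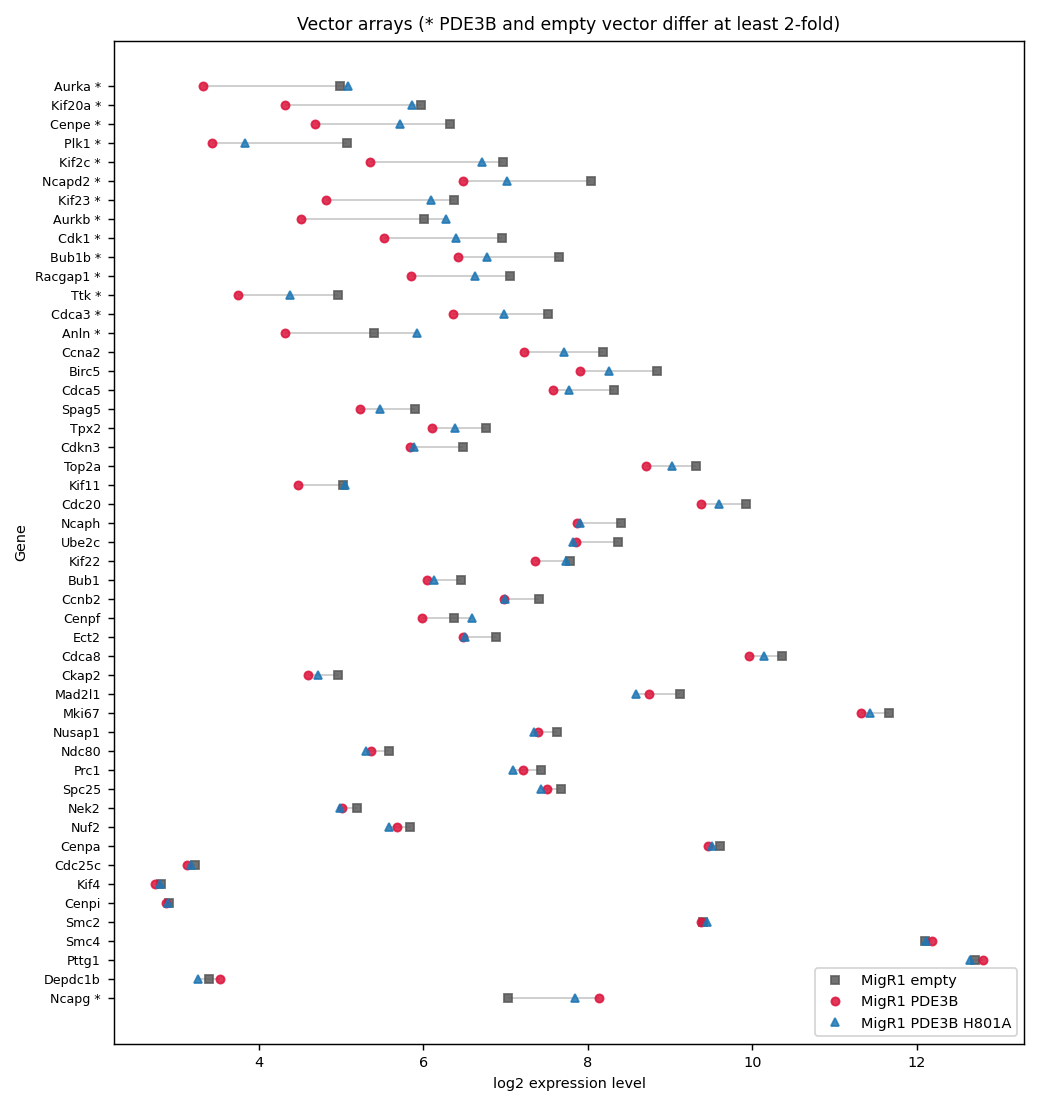
Log2 expression level (horizontal axis) of the 49 genes (vertical axis, ordered by the difference between PDE3B and empty vector) on the 3 vector arrays, with an asterisk where PDE3B and empty vector differ at least 2-fold. For 14 starred genes the PDE3B point lies to the left, and for Ncapg it lies to the right.

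Compared with freshly sorted GFPfoxp3 cells, the transferred cells with empty vector had 17 members at least 2-fold higher (5.69% of all genes) and 2 lower, Smc4 and Depdc1b (12.3%), with a median of 0.51. All 3 vector arrays lay above all 3 untreated arrays of CD25pos, GFPko and GFPfoxp3 cells for 26 members (53.1%, against 23.7%), and below them for Smc2 and Smc4 (4.08%, against 30.1%). Sort, culture, transfer and experiment differ together here and cannot be told apart.

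Other cell cycle genes, from lists drawn up by function with earlier results of these data known, give the setting. Of 87 further genes of the mitotic machinery 15 were called higher in GFPfoxp3 than in GFPko cells and 0 lower (2 at an unadjusted p under 0.05), with a median of 0.41, and 6 were called higher with IL-2. Cdc25b, a phosphatase that activates Cdk1, differed by 1.94 ± 0.235 (SE, adjusted p = 0.0259) and Cep55, which acts in the last cut of division, by 1.68 ± 0.151 (SE, adjusted p = 0.0146). Of 24 regulators of mitotic genes 1, the repressor E2f8, was called higher in both comparisons (1.36 and 1.52). Foxm1 and Mybl2, activators of mitotic transcription, were near background on all arrays, at 3.16 to 3.96 and 3.18 to 3.32. Of 20 inhibitors and quiescence genes 3 were called higher in GFPfoxp3 than in GFPko cells (Cdkn2c, Gadd45a and Ccng1) and 1 lower (Slfn1), and of 12 G1 cyclins and kinases 0 were called (6 at an unadjusted p under 0.05). Between these populations, 1 of 24 regulators and 0 of 12 G1 genes did not exceed the share of all genes.

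DNA replication genes, which act in S phase before mitosis, were called higher in GFPfoxp3 than in GFPko cells in 4 of 37 cases (Cdc6, Mcm7, Prim2 and Rrm2) and with IL-2 in 3 (Cdc6, Prim2 and Rrm2). Of all genes kept, 5.44% and 0.235% were. The medians of the replication genes were 0.41 and 0.80, against 1.42 and 1.70 for the mitosis genes. Against CD25pos cells the signs parted. In GFPfoxp3 cells 3 of 37 replication differences were positive, with a median of -0.24, whereas 43 of 49 mitosis differences were, with a median of 0.42. Cdc7, a kinase that fires replication origins, was called lower (-0.70 ± 0.117, SE, adjusted p = 0.0413), and E2f1, an activator of S phase genes, was also called lower (-0.78 ± 0.096, SE, adjusted p = 0.0239). In this comparison 3.45% of all genes kept were called lower. The difference between the lists was not tested.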

How the data were processed

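The deposited values are log2 expression levels of 45101 Affymetrix probe sets on 10 arrays, 1 per group, which the authors normalized together, per the labels' design text. Per the labels, RNA was amplified in 2 rounds, and the software of that normalization was not given in the sources used here. Precision is limited by how few arrays there are. Of the probe sets, 34958 have 1 annotated gene, 932 several and 9211 none, and 34754 of the first were updated through Entrez IDs. Each of 18194 genes was read by its probe set with the highest mean, and 11939 genes with at least 1 array at or above its own median (3.04 to 3.22) were kept. Population and IL-2 were fitted additively over 6 arrays with limma 3.58.1 in R 4.3.3 and Benjamini-Hochberg adjustment over all kept genes. The script was tested on simulated data. Other pairs of single arrays are counts at least 2-fold, with no test. Replicates were not available, so p-values weigh each difference against departures from additivity and not against the spread between mice. The alternatives were quantile normalization, centring, no filter, other probe-set choices, another variance model, more or fewer arrays and 3-fold.

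The 50 genes and the other lists were chosen with earlier results of these data known. Levels on all arrays are given, in each of 8 roles, for the gene with the highest mean, the largest GFPfoxp3 to GFPko difference and the largest IL-2 difference, or fewer where 1 gene met several, and genes called or at least 2-fold different against the majority direction are named. Of the other lists, up to 4 genes with the largest differences are named per comparison. Promoters are printed for Ccnb2 and 5 further genes with both motifs.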

Additional observations from a re-analysis of the deposited data

Results flagged for a closer look

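The IL-2 differences of 2 mitosis genes did not share a sign over the 3 populations. Cdc25c, the phosphatase that activates Cdk1, differed by 1.02 log2 units in CD25pos cells, -0.05 in GFPko cells and 0.44 in GFPfoxp3 cells, and it lay below background on both GFPko arrays. Smc4, the condensin subunit, differed by 0.18 in CD25pos cells, -0.24 in GFPko cells and -0.09 in GFPfoxp3 cells. Each value compares 1 array with 1 array, and the difference between the populations was not tested.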

How the results depend on the processing

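No paired analysis was possible because each group holds 1 array and has no numbered replicates. The IL-2 fit itself compares treated with untreated arrays within each population. Of the 31 genes called between GFPfoxp3 and GFPko cells, the count was 14 with no filter. The 2 called against CD25pos cells became 6 with centred arrays, 0 with no filter, 1 with an intensity trend and robust variance, and as counts at least 2-fold 5 on untreated and 1 on IL-2 arrays. The 19 called between GFPko and CD25pos cells became 2 with no filter and 0 without the GFPfoxp3 population. The 15 called with IL-2 became 38 with centred arrays, 8 with the mean of all probe sets, and 0 under quantile normalization, with no filter, with an intensity trend and robust variance, and without the CD25pos, GFPko or GFPfoxp3 population, at medians of 1.61 to 1.70 log2 units. A lower number of arrays or a higher number of genes tested is part of some of these settings, and for the rest the cause was not tested. Counts at 3-fold, and the 2-fold counts in brackets, take both directions together, and the share of all genes at 3-fold is not given. By the probe sets used, the 17 include Kif23, which was lower, and the 15 include Ncapg, which was higher. At 3-fold the counts were 9 for GFPko against CD25neg (17 at 2-fold), 23 for IL-2 in GFPfoxp3 (44), 25 for IL-2 in CD25pos (43), 5 for PDE3B against empty vector (15), 0 for H801A against empty vector (2) and 3 for PDE3B against H801A (7). With the mean of all probe sets the 2-fold counts of these last 3 comparisons became 5, 1 and 3, in place of 15, 2 and 7. With centred arrays the 2-fold count for H801A against empty vector was 1. Without probe sets that can cross-match, Kif2c turned to -0.13 between GFPfoxp3 and GFPko cells (adjusted p = 0.606) and 0.21 between GFPko and CD25pos cells (adjusted p = 0.492), both read by a probe set near background.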

Other observations

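Genes that restrain the cell cycle differed in a few cases. Of 20 inhibitors and quiescence genes, 3 were called higher in GFPfoxp3 than in CD25pos cells, where 5.28% of all genes kept were, and 0 lower, where 3.45% were (limma). In this comparison 2 of the 49 mitosis genes were called. The 3 inhibitors were Gadd45a (1.55 ± 0.14, SE, adjusted p = 0.0129), a stress-induced growth arrest gene, Cdkn2c (0.70 ± 0.113, SE, adjusted p = 0.0389), which encodes the inhibitor p18 of the G1 kinases, and Cdkn1b (0.58 ± 0.0981, SE, adjusted p = 0.0438), which encodes the inhibitor p27. Without IL-2, Cdkn2c read 6.55 in CD25neg, 8.35 in CD25pos, 7.93 in GFPko and 9.11 in GFPfoxp3 cells. Cdkn1b read 9.39, 8.41, 8.82 and 9.01 in the same order, and Gadd45a 6.03, 5.13, 5.49 and 6.67, so that CD25neg was lowest for Cdkn2c and highest for Cdkn1b. With IL-2 0 of the 20 were called (1 higher and 5 lower at an unadjusted p under 0.05). Prdm1, a repressor that marks effector regulatory T cells and plasma cells, was called higher in GFPfoxp3 than in GFPko cells by 2.56 ± 0.0978 (SE, adjusted p = 0.0052), where 5.44% of all genes kept were. It is 1 of 9 measured germinal centre and plasma cell markers. Without and with IL-2 their median was 3.42 and 3.28 in GFPko and 3.21 and 3.24 in GFPfoxp3 cells. Their summed linear level was 2630 and 4580 in GFPko and 3740 and 4620 in GFPfoxp3 cells.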
